A study of Mus musculus with 15 samples.

Results

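The cluster from miR-379 to miR-410 is a run of microRNA (miRNA) genes in the imprinted Dlk1-Dio3 region of mouse chromosome 12, described here in the mouse brain 14 days after bleeding into its tissue, an intracerebral haemorrhage (ICH). Members were chosen by name alone, as every mature miRNA, of either arm, that carries 1 of 35 miRNA numbers of the cluster. The tables hold 683 distinct miRNA names, of which 63 are members, and they come from 36 hairpins. Of the 35 numbers, 33 had a row, and those of miR-654 and miR-453 were not analysed here. Small RNA was sequenced in 15 wild-type mice, 5 in each of 3 groups. The sham group had a sham operation and distilled water by gavage, the ICH group had a haemorrhage and distilled water, and the BYHWD group had a haemorrhage and Buyang Huanwu decoction (BYHWD), a traditional multi-herb preparation, at 6.19 g/kg by gavage once a day. All 3 groups were sampled on day 14 from the basal ganglia on the operated side, after perfusion with saline. No treated sham group is among the samples, so an effect of the decoction without haemorrhage was not analysed here. The extraction protocol speaks of an exosome pellet, so whether the RNA came from vesicles or from the dissected tissue itself is not settled. Each library held between 4684611 and 9860236 counts, of which 217306 to 497710 belonged to the cluster, and all 63 members were detected in every library. The lowest count of a member in a library was 3.

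Genes of the Dlk1-Dio3 region are expressed from 1 parental chromosome, and the miRNAs of the cluster, together with the long non-coding RNAs Meg3, Rian and Mirg, are expressed from the maternally inherited one. Each miRNA is cut from a hairpin whose arms give a 5p and a 3p product, and the seed, bases 2 to 8 from the 5′ end, largely sets which messenger RNAs a product can repress. The cluster is known for its high expression in brain and in neurons, where Mef2 raises its transcription after neuronal activity. Among its members miR-134 represses Limk1 and Pum2 in dendrites of rat neurons, miR-485-5p represses the synaptic vesicle protein SV2A in rat neurons, and primary transcripts of the miR-376 family are edited by ADAR enzymes. Mice that lack the cluster show altered neonatal metabolism and anxiety-related behaviour.

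The hairpins that RefSeq (GRCm38.p6) places lie on chr12:109709060-109743795, a span of 34.7 kb. Of these 34 hairpins, 33 are on the plus strand and miR-299b is on the minus strand opposite miR-299a. At the far end of the cluster 12 hairpins, from miR-382 to miR-410, lie inside the GENCODE gene model of the lincRNA Mirg, and 8 of them overlap its exons. RefSeq gave a mature sequence for 60 of the 63 members, and none was matched for miR-376c-3p, miR-487b-3p or miR-485-5p. The 60 sequences carry 57 distinct seeds, so that most members do not share a seed with another. The sequences that follow are those of the members the results turn on and of their closest relatives, written 5′ to 3′ with the seed in capitals and with GRCm38.p6 positions. The first group comes from the first 2.7 kb of the cluster and holds the pair miR-379 and miR-411 with miR-380.
miR-379-5p: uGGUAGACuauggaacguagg, at chr12:109709065-109709085
miR-411-5p: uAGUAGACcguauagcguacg, at chr12:109710190-109710210
miR-379-3p: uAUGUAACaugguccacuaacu, at chr12:109709102-109709123
miR-411-3p: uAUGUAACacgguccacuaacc, at chr12:109710225-109710246
miR-380-5p: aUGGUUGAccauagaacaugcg, at chr12:109711806-109711827
miR-380-3p: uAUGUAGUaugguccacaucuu, at chr12:109711842-109711863
The 5p products of miR-379 and miR-411 differ at 7 of 21 bases, of which 1 is in the seed (G2A from miR-379-5p to miR-411-5p, counted from the 5′ end). Their 3p products have the same seed and differ at 2 of 22 bases (U10C and U22C), and miR-380-3p differs from miR-379-3p in the seed by A7G and C8U.

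The second group is the miR-376 family and the pair with the highest levels in the cluster, miR-381-3p and miR-300-3p, shown because single bases, in or outside the seed, separate these close relatives.
miR-376b-3p: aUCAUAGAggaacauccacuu, at chr12:109723508-109723528
miR-376a-3p: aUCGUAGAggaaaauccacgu, at chr12:109723824-109723844
miR-376b-5p: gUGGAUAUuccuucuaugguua, at chr12:109723471-109723492
miR-376c-5p: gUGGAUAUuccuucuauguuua, at chr12:109722733-109722754
miR-381-3p: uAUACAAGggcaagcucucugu, at chr12:109726870-109726891
miR-300-3p: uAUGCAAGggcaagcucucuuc, at chr12:109724363-109724384
The 5p products of miR-376b and miR-376c share a seed and differ at 1 base (G19U), while their relative miR-376a-3p differs from miR-376b-3p in the seed by A4G. The same substitution, A4G, separates the seeds of miR-381-3p and miR-300-3p, which differ at 3 of 22 bases in all. The third group lists the remaining products with a matched sequence that were lower in both haemorrhage groups combined.
miR-541-3p: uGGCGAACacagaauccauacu, at chr12:109742466-109742487
miR-412-5p: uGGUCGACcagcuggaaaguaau, at chr12:109743303-109743325
miR-369-5p: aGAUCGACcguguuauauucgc, at chr12:109743431-109743452
miR-410-3p: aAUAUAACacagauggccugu, at chr12:109743764-109743784
None of these 4 shares a seed with another member. The hairpins of miR-299a and miR-299b lie on opposite strands, but each miR-299b product is contained in the sequence of the miR-299a product of the same arm. Their counts could not be told apart: the 5p counts were identical in every library and the 3p counts differed by at most 2.19%.

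Sham 4 and sham 5 stood apart from the other 13 libraries. TMM scaling, which sets library sizes so that most miRNAs do not differ, gave them factors of 0.667 and 0.721, against 0.954 to 1.19 in the others. Both lay above all 13 other libraries for 14 of the 63 members (22.2%) and below them for 0, while the same shares over all 652 miRNAs tested were 12.3% and 7.21%. In miR-380-5p they held 1334 and 753 CPM (counts scaled to a common depth, on TMM-scaled library sizes), and the highest of the others was 326. In miR-376c-3p they held 334 and 228 CPM, and in miR-382-3p 8284 and 4913 CPM. The other members above the range were miR-376a-3p, miR-376b-3p, miR-379-5p, miR-410-3p, miR-412-5p, miR-485-5p, miR-487b-3p, miR-494-3p, miR-541-3p, miR-541-5p and miR-679-5p. 1 marker of oligodendrocytes, the myelin-forming cells, was also high in these libraries: miR-219a-2-3p held 23192 CPM in sham 4 and 19415 CPM in sham 5, and 5756 to 9721 CPM elsewhere. The other 2 listed oligodendrocyte markers were not high there, with miR-338-3p at 300.9 and 411.6 CPM against 513 to 848 CPM elsewhere and miR-338-5p at 622 and 764 CPM against 735 to 1265 CPM. The list summed to 24116 CPM in sham 4 and 20591 CPM in sham 5, and to 7015 to 11091 CPM elsewhere. Its part in the values of these libraries was not tested. Results that rest on the sham mice are therefore also given without sham 4 and sham 5.

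Levels within the cluster spanned 4 orders of magnitude. The most abundant product was miR-381-3p, with a mean of 16149 CPM over the 15 libraries, 35.1% of the cluster and rank 19 among all miRNAs tested. It was followed by miR-300-3p with 5231 CPM, miR-382-3p with 3299 CPM, miR-379-5p with 3249 CPM, miR-411-5p with 3107 CPM and miR-541-5p with 3092 CPM. The last 4 of these differed by less than the spread of each between mice (miR-379-5p alone ranged from 2063 to 6752 CPM), so their order is not settled. The next were miR-329-5p with 1090 CPM, miR-369-3p with 1001 CPM, miR-382-5p with 979 CPM, miR-410-3p with 902 CPM, miR-409-5p with 865 CPM and miR-323-3p with 640 CPM. Together the 12 most abundant members made up 86.2% of the cluster. At the other end 16 members had a mean between 1 and 10 CPM and held 0.171% of the cluster's counts, 13 members lay between 10 and 100 CPM, and 26 between 100 and 1000 CPM. How well an adapter ligates also differs between sequences, so these levels order reads and may not order molecules.

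**Figure D1:**
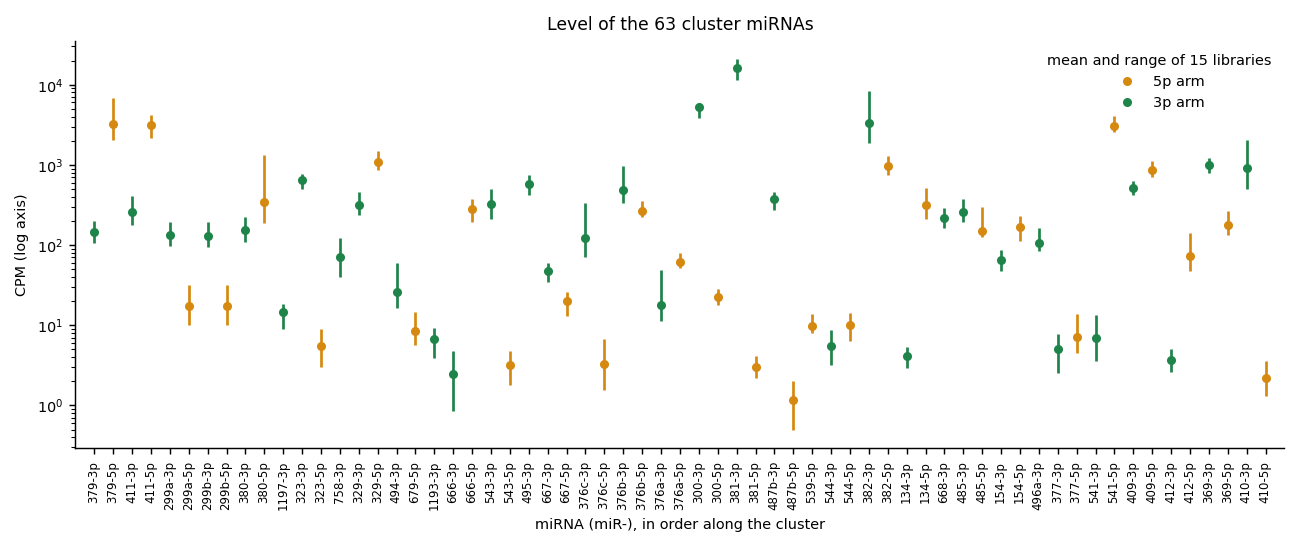
Level of each of the 63 cluster miRNAs in CPM (log axis), in order along the cluster; points are means and lines the range of 15 libraries, coloured by arm. miR-381-3p stands highest with 16149 CPM, and the widest ranges belong to members such as miR-380-5p that were high in sham 4 and sham 5.

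The summed share of the cluster in the miRNA counts overlapped between the 3 groups. As a percentage of the TMM-scaled library size it took 4.92 ± 0.43% in sham, 4.50 ± 0.29% in ICH and 4.37 ± 0.54% in BYHWD (mean ± SD, n = 5 each). The sham libraries held 4.40, 4.66, 4.97, 5.54 and 5.05%, the ICH libraries 4.81, 4.29, 4.12, 4.74 and 4.52%, and the BYHWD libraries 4.79, 3.73, 5.00, 3.92 and 4.40%. All 3 groups overlapped, and the differences between their means were of the size of the spread within them. The order of the groups depended on the scaling: as a percentage of the raw library total the share was 4.62% in sham, 4.63% in ICH and 4.57% in BYHWD. Sham 4 and sham 5 had the highest scaled shares and the lowest raw shares, 3.70 and 3.64%, and the sham mean without them was 4.68% scaled and 5.25% raw. Because miR-381-3p alone makes up a large part of the sum, the rest of the cluster was also summed without it, which gave 3.44 ± 0.50% in sham, 2.74 ± 0.19% in ICH and 2.76 ± 0.15% in BYHWD. On this scale every sham library (2.99 to 4.22%) lay above every haemorrhage library (2.41 to 2.92%), and the mean without sham 4 and sham 5 was 3.11 ± 0.10% (n = 3). As a percentage of the raw totals the same sum was 3.19 ± 0.46% in sham, 2.83 ± 0.28% in ICH and 2.89 ± 0.06% in BYHWD, and the sham libraries (2.65 to 3.80%) overlapped the haemorrhage libraries (2.38 to 3.07%), with sham 4 and sham 5 the lowest of the sham mice. In tissue samples fewer cells of a type and less RNA per cell cannot be told apart.

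The effect of haemorrhage was addressed first by ICH against sham. Of the 63 members, 52 had a fitted log2 difference below 0, and the median was -0.23, beside 52.3% of all 652 miRNAs below 0 and a median of -0.02. No member passed the threshold (edgeR quasi-likelihood F-test, Benjamini-Hochberg adjusted p under 0.05 over all 652 miRNAs), where 0.767% of all miRNAs were called higher and 0.0% lower. At an unadjusted p under 0.05, 20 members were lower and 0 higher, beside 11.3% of all miRNAs lower and 9.66% higher. The 5 ICH mice lay below all 5 sham mice for 4 members (miR-379-5p, miR-412-5p, miR-541-3p and miR-300-5p), beside 1.38% of all miRNAs, and above them for 0 members, beside 2.61%. DESeq2 called 10 members lower, where it called 4.29% of all miRNAs lower. Left-out libraries also changed the count, which was 3 without sham 2 and 6 without sham 3. In those fits 0.919% and 2.60% of all miRNAs were called lower. The smallest p belonged to miR-379-5p, with a log2 difference of -0.74 (SE 0.19, 95% interval -1.13 to -0.34, edgeR adjusted p = 0.0687), and to miR-541-3p with -0.88 (SE 0.23, edgeR adjusted p = 0.0687). Next came miR-380-5p with -1.41 (SE 0.39, edgeR adjusted p = 0.0854), miR-369-5p with -0.47 (SE 0.13, edgeR adjusted p = 0.0902) and miR-487b-3p with -0.41 (SE 0.12, edgeR adjusted p = 0.0902). Leaving out sham 4 and sham 5 gave a member median of -0.27 and 0 calls, and the difference of miR-380-5p shrank to -0.32 while that of miR-369-5p was -0.57.

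In mice given the decoction after haemorrhage, miR-379-5p was 1.82-fold lower than in sham mice and was the 1 member called. Its level was 3444, 4011, 3403, 6752 and 5077 CPM in the sham mice, 2456, 2431, 2850, 3240 and 2634 CPM in the ICH mice, and 2749, 2257, 3217, 2063 and 2146 CPM in the BYHWD mice. All 10 haemorrhage mice lay below all 5 sham mice, as was the case for 0.153% of all miRNAs, while ICH and BYHWD overlapped. The group means were 4538 ± 1410, 2722 ± 334 and 2486 ± 487.5 CPM (SD, n = 5). For BYHWD against sham the log2 difference was -0.87 (SE 0.19, 95% interval -1.27 to -0.47, edgeR adjusted p = 0.0178), where 0.307% of all miRNAs were called lower and 1.99% higher. The call was lost without sham 4 and sham 5, where the difference was -0.55 with an edgeR adjusted p of 0.0975. It was also lost without any 1 of sham 4, sham 5, BYHWD 2, BYHWD 4 or BYHWD 5 (edgeR adjusted p 0.0530 to 0.0687), and in a fit of the BYHWD and sham libraries alone (0.0807). The fold stayed between -1.02 and -0.71 on the log2 scale with any 1 library left out.

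The other members gave a mixed picture for BYHWD against sham. In all, 41 of 63 members were below 0, with a median of -0.13 (all miRNAs 48.3% below 0, median 0.02), and 17 were lower and 0 higher at an unadjusted p under 0.05, beside 11.8% and 9.36% of all miRNAs. The next smallest p belonged to miR-411-5p, with a log2 difference of -0.49 (SE 0.13, edgeR adjusted p = 0.0556), and to miR-379-3p with -0.47 (SE 0.14, edgeR adjusted p = 0.0933). Larger differences with larger errors were those of miR-380-5p at -1.28 (SE 0.39, edgeR adjusted p = 0.0946), and miR-376c-3p at -0.96 (SE 0.31, edgeR adjusted p = 0.1004), both members in which sham 4 and sham 5 were high. Without these libraries they were -0.19 and -0.22, while miR-411-5p was -0.51. The number of members called was 2 without sham 2, ICH 1 or BYHWD 3, beside 1.38%, 0.306% and 0.610% of all miRNAs called lower. It was 6 without sham 1 (4.74% of all miRNAs) and 8 without sham 3 (5.05%). DESeq2 called 8 members and 4.60% of all miRNAs lower. Both comparisons use the same sham mice, so their values stand side by side and are not independent of each other.

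**Figure D2:**
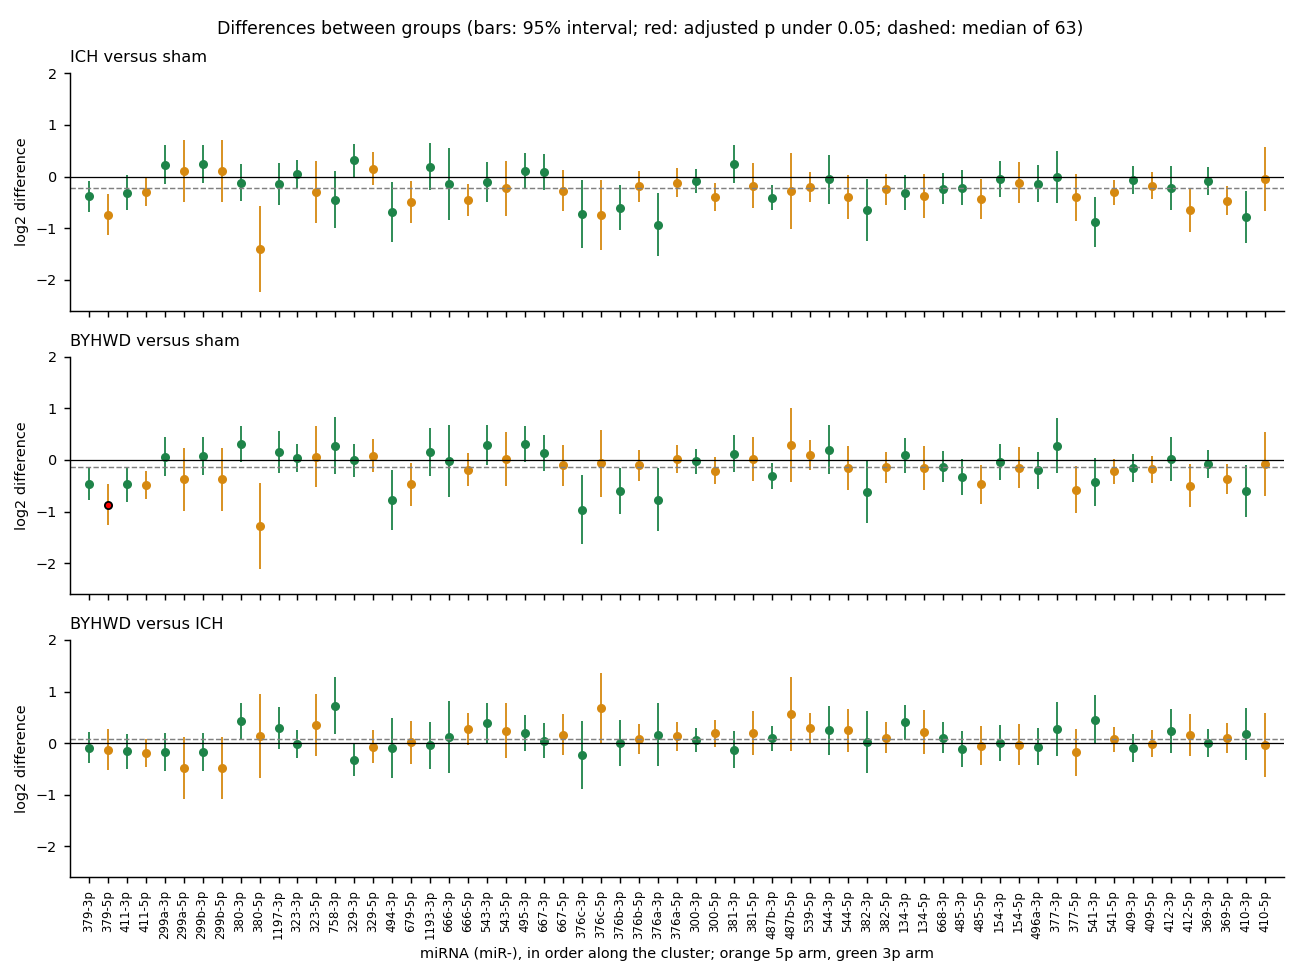
Fitted log2 difference of each of the 63 members in 3 comparisons, in order along the cluster, with 95% intervals; orange marks 5p and green 3p arms, dashed lines the median of the members and the red point the member with an adjusted p under 0.05. The medians are -0.23, -0.13 and 0.08, and the red point is miR-379-5p in BYHWD versus sham.

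Both haemorrhage groups as 1 against sham, 10 mice against 5, gave the largest number of calls. Of the 63 members, 11 were lower and 0 higher, beside 4.29% of all miRNAs lower and 3.37% higher, and the members' median log2 difference was -0.14 (all miRNAs -0.01). The 11 were both products of miR-379, miR-411-5p, miR-380-5p, the 3p products of miR-376a and miR-376b, miR-487b-3p, miR-541-3p, miR-412-5p, miR-369-5p and miR-410-3p. At an unadjusted p under 0.05, 21 members were lower and 0 higher (all miRNAs 14.0% and 11.2%). Without sham 4 and sham 5 the 11 stayed below 0, from -0.52 to -0.16. In that fit 1 of them, miR-369-5p, was called, beside 0.303% of all miRNAs called lower. Of the 63 members, 54 were then below 0, against 48 with all libraries. In 9 of the 11 the edgeR adjusted p lay between 0.0432 and 0.0483, so that small changes in the set of libraries moved the count. It was 1 without sham 4, ICH 3 or ICH 5, where 0.153 to 0.306% of all miRNAs were called lower. The count was 2 without sham 5, ICH 4, BYHWD 2, BYHWD 4 or BYHWD 5 (0.305 to 2.29% of all miRNAs). With BYHWD 1 left out it was 5 (2.45%), with ICH 2 left out 6 (2.74%) and with sham 1 left out 17 (7.80%). DESeq2 called 17 members lower, all 11 among them, and 8.59% of all miRNAs. With raw library totals in place of TMM scaling, an alternative chosen after the scaling factors had been seen, the median of all miRNAs moved by 0.12 to 0.11. On raw totals 2 members were called lower, miR-379-5p and miR-380-5p, beside 1.69% of all miRNAs. The members' median less that of all miRNAs was -0.18, against -0.13 with TMM.

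**Figure D3:**
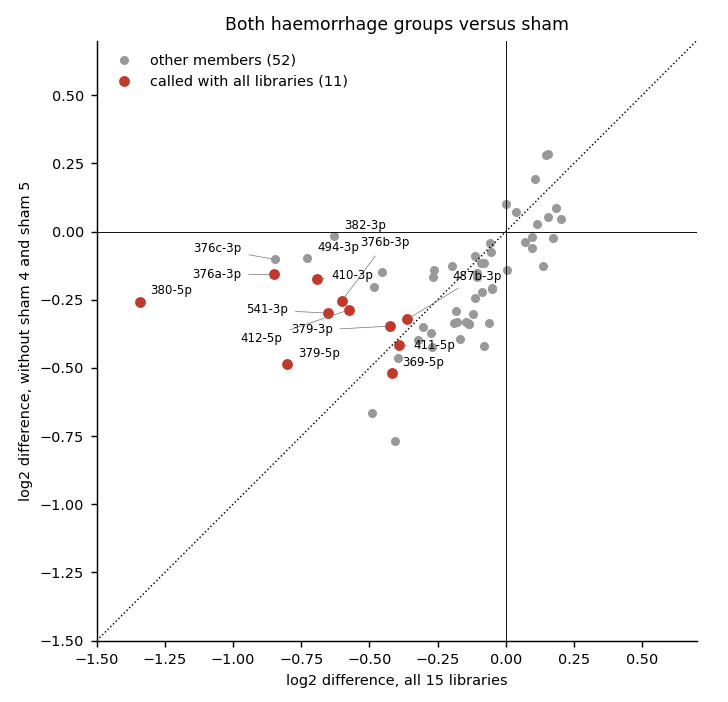
Log2 difference between both haemorrhage groups and sham for the 63 members with all 15 libraries (x axis) and without sham 4 and sham 5 (y axis); red points are the 11 members called with all libraries and the dotted line marks equal values. miR-380-5p moves from -1.34 to -0.26 and miR-376a-3p from -0.85 to -0.16, while miR-369-5p and miR-411-5p lie near the line.

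The members at the start of the cluster include both products of miR-379 and the 5p product of its neighbour miR-411. miR-379-5p had the smallest p of all members, with a log2 difference of -0.80 (SE 0.16, edgeR adjusted p = 0.0111) between both haemorrhage groups and sham, and it was called in 15 of 15 fits that left out 1 library (-0.93 to -0.63). Without sham 4 and sham 5 together it was -0.49 with an edgeR adjusted p of 0.0725. The 3p product, cut from the same hairpin and about 21.5-fold less abundant, was also called lower. miR-379-3p held 161, 197, 138, 185 and 196 CPM in sham, 145, 126, 111, 145 and 145 CPM in ICH, and 133.6, 135.8, 109, 149 and 105 CPM in BYHWD. Sham 3 lay within the range of the haemorrhage mice and the other 4 sham mice above it. Its log2 difference was -0.42 (SE 0.12, edgeR adjusted p = 0.0455), and -0.35 without sham 4 and sham 5. miR-411-5p held 4060, 4225, 2901, 3615 and 3621 CPM in sham, 3329, 3157, 2442, 3067 and 3036 CPM in ICH, and 2575, 2875, 2982, 2522 and 2193 CPM in BYHWD. Again sham 3 alone overlapped the haemorrhage groups, and sham 4 and sham 5 were not extreme. The log2 difference was -0.39 (SE 0.11, edgeR adjusted p = 0.0455), and -0.42 without those libraries (edgeR adjusted p = 0.101). Its 3p product, miR-411-3p, which shares its seed with miR-379-3p, had group means of 304 ± 71.1, 245 ± 36.5 and 219 ± 25.4 CPM (SD, n = 5) and was not called.

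As in miR-379-5p, sham 4 and sham 5 were the highest libraries in the members that follow, but here other sham mice overlapped the haemorrhage mice. miR-380-5p held 326, 202, 285, 1334 and 753 CPM in sham, 205, 255, 188, 205 and 238 CPM in ICH, and 282, 222.2, 252, 204 and 236.7 CPM in BYHWD. Sham 2 lay among the haemorrhage mice, sham 1 and sham 3 lay above the highest of them (282 CPM), and sham 4 and sham 5 lay far above. The fitted log2 difference was -1.34 (SE 0.32, edgeR adjusted p = 0.0273) and -0.26 (edgeR adjusted p = 0.372) without these 2. miR-410-3p, the last gene of the cluster, held 990, 742, 782, 2026 and 1499 CPM in sham, 770, 834, 494.9, 723 and 691 CPM in ICH, and 813, 842, 662, 814 and 849 CPM in BYHWD. Here too sham 4 and sham 5 were highest, and the log2 difference of -0.69 (SE 0.20, edgeR adjusted p = 0.0455) became -0.17 without them. miR-376b-3p held 520, 484.9, 459, 700 and 964 CPM in sham, 478, 414, 350, 484.9 and 336 CPM in ICH, and 593, 355, 358, 355 and 402 CPM in BYHWD. miR-376a-3p held 17.6, 17.4, 12.1, 49.1 and 32.5 CPM in sham, 14.1, 14.8, 11.6, 11.4 and 14.8 CPM in ICH, and 13.9, 15.2, 17.1, 14.2 and 14.2 CPM in BYHWD. In both, sham 4 and sham 5 were the highest of the 15 mice. Their log2 differences were -0.60 (SE 0.18, edgeR adjusted p = 0.0483) and -0.85 (SE 0.24, edgeR adjusted p = 0.0455), and -0.25 and -0.16 without these libraries.

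miR-412-5p and miR-541-3p, both from the Mirg end of the cluster, showed the same 2 high sham libraries. miR-412-5p held 73.0, 81.6, 76.0, 140 and 102 CPM in sham, 57.0, 53.2, 54.3, 65.5 and 70.1 CPM in ICH, and 76.6, 64.6, 85.8, 60.6 and 47.0 CPM in BYHWD. The sham mice lay above all ICH mice and overlapped the BYHWD mice. miR-541-3p, a low product, held 7.80, 7.13, 6.40, 13.6 and 11.4 CPM in sham, 3.59, 6.36, 3.95, 5.45 and 5.42 CPM in ICH, and 7.17, 6.94, 6.30, 7.97 and 5.47 CPM in BYHWD. Its groups were arranged alike, with ICH below sham in every mouse and BYHWD around the lower sham mice. The log2 differences of both haemorrhage groups were -0.58 (SE 0.17, edgeR adjusted p = 0.0455) for miR-412-5p and -0.65 (SE 0.19, edgeR adjusted p = 0.0471) for miR-541-3p, and -0.29 and -0.30 without sham 4 and sham 5.

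For miR-369-5p and miR-487b-3p the difference was of similar size without sham 4 and sham 5. miR-369-5p held 262, 241, 182, 215.02 and 171 CPM in sham, 157, 156, 135, 154.3 and 172 CPM in ICH, and 179, 156, 171, 179 and 144 CPM in BYHWD. Sham 5 was the lowest sham mouse and the 1 that overlapped the haemorrhage mice. The log2 difference was -0.42 (SE 0.12, edgeR adjusted p = 0.0432) with all libraries and, when sham 4 and sham 5 were left out, -0.52 (SE 0.12, edgeR adjusted p = 0.0452). The other arm, miR-369-3p, which in human cells can raise translation of TNF mRNA on cell cycle arrest, had group means of 1042 ± 170, 979 ± 114 and 981 ± 83.6 CPM (SD, n = 5) and was not called. miR-487b-3p held 450, 367, 447, 460 and 457 CPM in sham, 378.7, 311, 271, 353 and 331 CPM in ICH, and 385, 340, 302, 387 and 340.5 CPM in BYHWD. Sham 2 lay among the haemorrhage mice and the other 4 sham mice above all of them. The log2 difference was -0.36 (SE 0.10, edgeR adjusted p = 0.0440), and -0.32 without sham 4 and sham 5, where it was not called (edgeR adjusted p = 0.158).

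**Figure D4:**
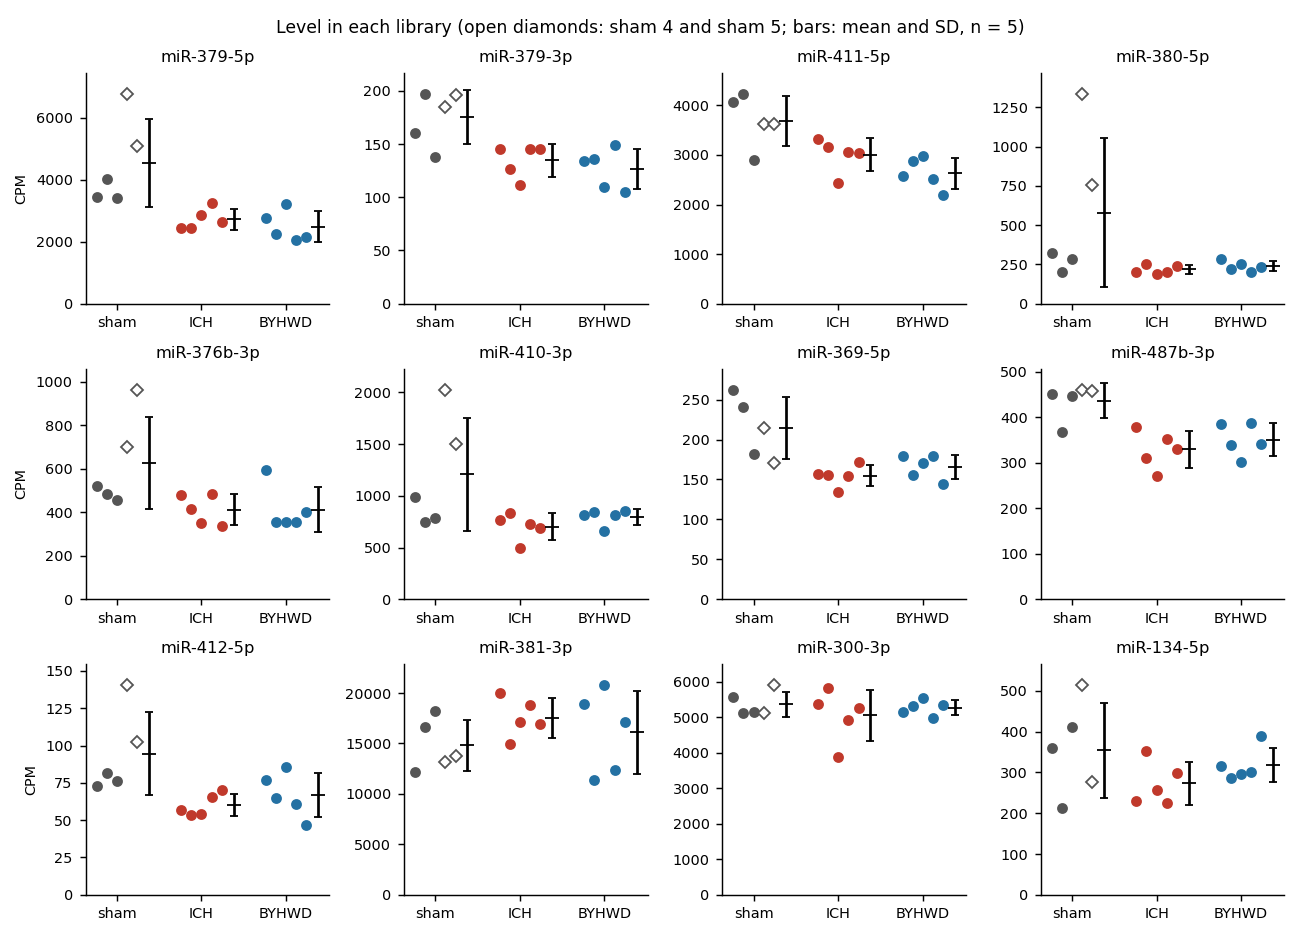
CPM of 12 members in each of the 15 mice (linear axes from 0), with group mean and SD (n = 5) beside the points and sham 4 and sham 5 as open diamonds. In miR-379-5p every sham mouse is above every haemorrhage mouse, in miR-380-5p sham 4 and sham 5 lie far above the rest, and miR-381-3p and miR-300-3p overlap in all groups.

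The pair at the top of the level order, miR-381-3p and miR-300-3p, overlapped between the groups. miR-381-3p held 12177, 16640, 18243, 13204 and 13761 CPM in sham, 20017, 14901, 17114, 18762 and 16890 CPM in ICH, and 18886, 11367, 20768, 12330 and 17172 CPM in BYHWD. The 3 groups overlapped widely, and its log2 difference between both haemorrhage groups and sham was 0.18 (SE 0.15, 95% interval -0.14 to 0.50, edgeR adjusted p = 0.499). miR-300-3p, with a related sequence, had group means of 5368 ± 355, 5053 ± 731 and 5271 ± 207 CPM (SD, n = 5) and a log2 difference of -0.06 (SE 0.10, 95% interval -0.26 to 0.15), which was 0.08 on raw library totals. miR-382-3p had the same 2 high sham libraries as miR-380-5p, with group means of 4319 ± 2497, 2765 ± 169 and 2814 ± 455 CPM, and was not called (log2 difference -0.63, SE 0.24, edgeR adjusted p = 0.110). A list of 17 products, those of miR-134, miR-329, miR-381, miR-495, miR-485, miR-379, miR-411, miR-377 and miR-541, was taken as activity-regulated. It was chosen with earlier results of these data known and was not tested against the other members. All 63 members held 11 calls lower in this comparison and a median of -0.14, beside 4.29% of all miRNAs called lower and a median of -0.01. Of the 17 listed products, 4 were called lower and their median was -0.27. These 4 were both products of miR-379, miR-411-5p and miR-541-3p, and without sham 4 and sham 5 none of the 17 was called (0 calls, median -0.17). miR-134-5p, the dendritic repressor of Limk1, held 360, 213.5, 410.7, 514 and 276 CPM in sham, 230, 353, 256, 226 and 298.9 CPM in ICH, and 316, 287, 295, 302 and 389 CPM in BYHWD. Its groups overlapped, with a log2 difference of -0.27 (SE 0.17, edgeR adjusted p = 0.375). miR-495-3p, which targets Bdnf, had group means of 530 ± 81.6, 568 ± 95.8 and 654.2 ± 138 CPM and a difference of 0.20 (SE 0.14, edgeR adjusted p = 0.434).

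Treatment after haemorrhage was compared as BYHWD against ICH. No member was called in either direction, as was the case for all 652 miRNAs (0.0% higher and 0.0% lower), and DESeq2 called none of the members. The median log2 difference of the members was 0.08 (all miRNAs 0.00), with 39 above 0 and 24 below. At an unadjusted p under 0.05, 6 members were higher and 1 lower, beside 3.53% and 1.23% of all miRNAs. miR-758-3p, which targets the cholesterol transporter ABCA1, had the smallest p: it held 42.0, 68.9, 47.4, 40.2 and 67.0 CPM in ICH and 86.9, 59.1, 95.6, 74.6 and 123 CPM in BYHWD. The groups overlapped by 1 BYHWD mouse, and the log2 difference was 0.72 (SE 0.26, 95% interval 0.17 to 1.27, edgeR adjusted p = 0.916). miR-134-3p, the passenger arm of miR-134, held 3.35, 3.37, 3.95, 2.88 and 3.92 CPM in ICH and 5.31, 4.45, 4.34, 4.86 and 4.26 CPM in BYHWD. These groups did not overlap, as was the case for 0.307% of all miRNAs in the higher direction, but the level is low and the adjusted p was 0.916 by edgeR (log2 difference 0.40, SE 0.16). miR-380-3p was 0.43 (SE 0.17) higher on the log2 scale, miR-539-5p 0.30 (SE 0.14) higher and miR-329-3p had a difference of -0.32 (SE 0.15), each with an edgeR adjusted p of 0.916.

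For the 11 members that were lower in both haemorrhage groups together, the ICH and BYHWD mice were compared directly. The log2 difference of BYHWD against ICH was -0.13 (95% interval -0.53 to 0.26) for miR-379-5p, -0.19 (-0.47 to 0.08) for miR-411-5p and -0.09 (-0.39 to 0.21) for miR-379-3p. It was 0.10 (-0.18 to 0.39) for miR-369-5p, 0.09 (-0.16 to 0.34) for miR-487b-3p, 0.18 (-0.32 to 0.68) for miR-410-3p and 0.46 (-0.02 to 0.94) for miR-541-3p. For the other 4 it was 0.13 (-0.68 to 0.95) for miR-380-5p, 0.16 (-0.45 to 0.77) for miR-376a-3p, -0.0011 (-0.44 to 0.44) for miR-376b-3p and 0.16 (-0.25 to 0.57) for miR-412-5p. These intervals allow differences in either direction, and a p that misses the threshold does not show that the decoction left the levels as they were.

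Differences were also summarised by position, arm and level. In ICH against sham all 20 members (11 hairpins) between 25 and 35 kb from the start of miR-379 were below 0, with a median of -0.23, and 9 of 16 members within the first 5 kb, with a median of -0.13. The members between 5 and 15 kb (13 of 16 below 0, median -0.25) and between 15 and 25 kb (10 of 11, median -0.25) lay near the distal ones. The 11 calls against both haemorrhage groups came from all 4 stretches, with 4, 2, 1 and 4 calls. By arm, 27 of 29 members from the 5p arm and 21 of 34 from the 3p arm were below 0 in that comparison, with medians of -0.20 and -0.09, and 5 and 6 members were called. By level, 8 of the 34 members with a mean of at least 100 CPM were called and 3 of the 29 below it, with medians of -0.19 and -0.11. The share of all miRNAs called lower in that comparison was 4.29%, and without sham 4 and sham 5 the 1 call left was miR-369-5p, a distal 5p product above 100 CPM. None of these differences between subsets was tested. In BYHWD against ICH the members under 100 CPM had a median of 0.19 and those of at least 100 CPM a median of -0.0045.

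Both products of a hairpin come from 1 precursor. The ratio of 5p to 3p counts does not depend on how libraries are scaled, because both counts are from the same library. The ratio was followed for 26 cluster hairpins among 190 hairpins in all that had a mean of at least 10 counts on both arms. The 5p arm was the larger in 13 of the 26 and the 3p arm in 13, and 24 kept the same larger arm in all 15 libraries. On the log2 scale the mean ratio ran from -12.3 for miR-381 to 8.84 for miR-541, and 15 hairpins exceeded 4-fold. The 5p product of miR-379 outnumbered its partner 21.5-fold and that of miR-411 12.2-fold, with an SD over the 15 libraries of 0.35 and 0.16 on the log2 scale.

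No arm ratio of a cluster hairpin differed between groups at an adjusted p under 0.05 (limma over 190 hairpins), where 0.0% of all hairpins were called in ICH against sham, 0.0% in BYHWD against ICH, 0.0% in BYHWD against sham and 2.11% in both haemorrhage groups against sham. At an unadjusted p under 0.05, 13.7% of all hairpins passed in ICH against sham, 2.63% in BYHWD against ICH, 15.8% in BYHWD against sham and 18.4% in the pooled comparison. The smallest p in the cluster belonged to miR-541 in ICH against sham, with a log2 ratio of 9.16 ± 0.30 in ICH and 8.59 ± 0.35 in sham (SD, n = 5), a difference of 0.58 with a limma adjusted p of 0.235. In BYHWD against sham it belonged to miR-377, with 0.07 ± 0.56 in BYHWD and 0.98 ± 0.38 in sham, a difference of -0.91 with a limma adjusted p of 0.0771. For miR-380 the 5p to 3p ratio was 3.27 in sham 4 and 2.80 in sham 5 on the log2 scale, and between 0.21 and 0.88 in the other 13 libraries. The 3p product of miR-380 was within the range of the others in these libraries, with 138 and 108 CPM. In miR-376a the ratio was 0.16 and 0.65 in these libraries and 1.94 to 2.47 elsewhere, and in miR-410 it was -10.3 and -10.1 against -8.95 to -7.98. Both libraries lay above all others in 3 of the 26 hairpins and below all others in 6. In the 3 hairpins named the product that was high in sham 4 and sham 5 was thus high relative to its own partner arm as well, a ratio into which scaling does not enter. Without sham 3, 2 cluster hairpins were called in ICH against sham and 1 in each of the other comparisons with sham. The share of all hairpins called in those fits is not given here, so these counts have no background beside them.

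**Figure D5:**
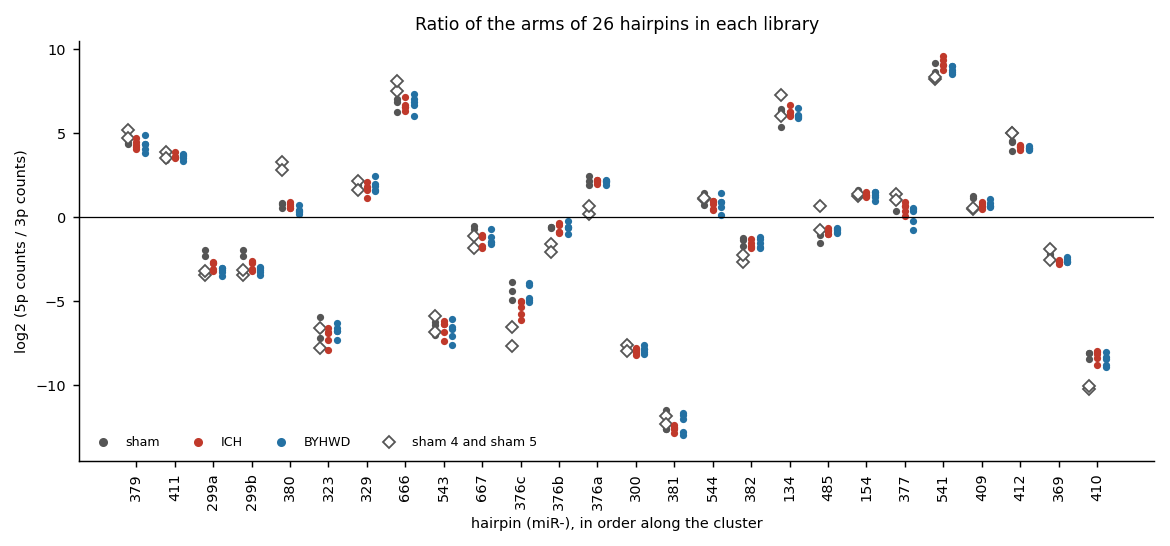
Log2 ratio of 5p to 3p counts of 26 cluster hairpins in each library, in order along the cluster; grey, red and blue points are sham, ICH and BYHWD mice and open diamonds are sham 4 and sham 5. The groups overlap in each hairpin, and both diamonds lie outside all other libraries in 9 hairpins, above in miR-380, miR-412 and miR-666 and below in the miR-376 family, miR-382, miR-541 and miR-410.

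The shared seeds printed above allowed related products to be set side by side. miR-379-3p and miR-411-3p, with 1 seed, had log2 differences of -0.38 and -0.31 in ICH against sham and of -0.47 and -0.47 in BYHWD against sham. miR-376b-5p and miR-376c-5p, which share another, differed in level, with miR-376b-5p at 284 ± 55.5 CPM and miR-376c-5p at 3.81 ± 2.12 CPM in sham (SD, n = 5). In miR-376b the 3p product was called lower in both haemorrhage groups together and the 5p product was not. The 3p products of miR-299a and miR-299b, which share counts, had group means of 123 ± 25.8, 145 ± 36.2 and 129 ± 10.3 CPM under the name miR-299a-3p, and their fitted values count as 1 measurement.

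The other miRNAs of the same imprinted region were 26 products of miR-127, miR-136, miR-433, miR-434 and their neighbours upstream of miR-379. They took 4.88% of the raw counts in sham 4, 5.21% in sham 5 and 6.22 to 9.82% in the other libraries. In ICH against sham 20 of the 26 were below 0, with a median of -0.21 and 0 called, and the median was -0.12 in BYHWD against sham and 0.09 in BYHWD against ICH. In both haemorrhage groups against sham 1 of the 26 was called lower, a share near the 4.29% of all miRNAs. It was miR-665-3p, with 32.0 ± 9.20, 20.7 ± 1.64 and 22.2 ± 1.87 CPM in sham, ICH and BYHWD (SD, n = 5) and a log2 difference of -0.57 (SE 0.16, edgeR adjusted p = 0.0440), and of -0.52 without sham 4 and sham 5 (edgeR adjusted p = 0.158). The most abundant, miR-127-3p, which is antisense to the retrotransposon-like gene Rtl1, held 48842 ± 9582, 45925 ± 3811 and 50542 ± 4140 CPM and had a log2 difference of -0.09 in ICH against sham. In both haemorrhage groups against sham 18 of the 26 were below 0, with a median of -0.14, and the cluster's median was also -0.14. The cluster's medians in the other comparisons were -0.23 in ICH against sham, -0.13 in BYHWD against sham and 0.08 in BYHWD against ICH. The lower median against sham was thus not particular to the cluster. The medians of the cluster and of these neighbours were not tested against each other.

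Sums of most cell type marker lists overlapped between the groups. The leukocyte and microglia sums of all ICH mice lay above those of sham, as did the mesenchymal sums of all BYHWD mice. The 7 listed neuronal miRNAs, all detected, summed to 30835 to 52657 CPM in sham, 33874 to 48093 CPM in ICH and 28172 to 46824 CPM in BYHWD, and the groups overlapped. miR-124-3p, the most widely used neuronal marker, had a log2 difference of -0.22 (SE 0.12, edgeR adjusted p = 0.286) between both haemorrhage groups and sham. The lowest value was that of miR-137-3p, -0.38 (SE 0.11, edgeR adjusted p = 0.0510), while miR-128-3p was at 0.17 (SE 0.15). The rest were miR-138-5p at -0.31, miR-132-3p at -0.17, miR-218-5p at -0.10 and miR-129-5p at -0.09. None of the listed neuronal miRNAs was called in this comparison. The 5 listed leukocyte and microglia miRNAs, none at 0, summed to 304 to 425 CPM in sham, 532 to 739 CPM in ICH and 356 to 814 CPM in BYHWD. In both haemorrhage groups against sham miR-155-5p and miR-142a-3p were called higher, by 1.91 (SE 0.21) and 1.63 (SE 0.26) on the log2 scale. So were miR-223-3p, by 1.64 (SE 0.45), and miR-142a-5p, by 1.05 (SE 0.27). The remaining one, miR-150-5p, was not called, with a log2 difference of 0.06 (SE 0.15, edgeR adjusted p = 0.823). The 3 mesenchymal miRNAs summed to 141 to 218 CPM in sham, 175 to 480 CPM in ICH and 241 to 498 CPM in BYHWD. All 3 were called higher in both haemorrhage groups against sham. The log2 differences were 1.07 (SE 0.22) for miR-199a-3p, 1.12 (SE 0.29) for miR-199a-5p and 1.20 (SE 0.35) for miR-214-3p. Sums of the remaining lists (endothelial, mural, erythroid, choroid plexus, ciliated and neuroendocrine) overlapped between all groups. Their part in the lower values of cluster members was not tested.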

How the data were processed

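Small RNA libraries were made with the NEBNext kit, per the labels' protocols, and the submitters' processing notes name cutadapt, Bowtie, edgeR and the human build hg38, without versions, for samples labelled as mouse. Their housing text names rats in 1 place. The authors deposited 1 table of whole-number counts per library, not normalized. The sources used here do not say how multiply matching reads were counted.

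Each of the 15 tables holds 929 counts and 928 names, and in 15 of 15 the first count is the library number, so each count was given the name 1 row above it. With that move, 216 of 245 row pairs with the same name (88.2%) agreed to within 0.1 in log2 counts, while 149 (60.8%) did so before it. For the 76 names on more than 1 row, 1 row, that of the highest total, was used. This left 74.8% of all counts in sham 4, 72.7% in sham 5 and 66.6 to 69.3% in the other libraries. No member stands on more than 1 row.

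Counts were tested with edgeR 4.0.16 (R 4.3.3; robust quasi-likelihood F-test, TMM scaling, filterByExpr by group) in 1 fit of all 15 libraries with no covariate. Of 683 names, 652 passed the filter, all 63 members among them, and p-values were adjusted by Benjamini-Hochberg over the 652. SEs were derived as the log2 difference over the root of F, and CPM were computed on TMM-scaled totals. Arm ratios were tested with limma 3.58.1 on log2 of 5p over 3p counts, with 0.5 added to each. Both tests were run on simulated data first. DESeq2 1.42.0, RLE scaling, raw library totals, other filters, rows as deposited, a replicate block, fits of only the groups compared and fits without single libraries were alternatives. The labels give 5 mice a group, and p-values measure the spread between these libraries.

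Sequences and positions are from RefSeq (GRCm38.p6) and the Mirg gene model from GENCODE (GRCm38). Named with values are called members, the 12 most abundant, the 5 with the smallest p in each comparison and those sharing a seed, 30 in all, and miR-134-5p, miR-495-3p and others given by name for contrast were chosen after their values were seen. Members and lists were chosen with earlier results of these data known.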

Additional observations from a re-analysis of the deposited data

Results flagged for a closer look

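In 3 of the 111 sets of 5 libraries examined, 1 library stood far from the other 4, and chance alone flags about 5% of such sets. miR-376b-3p was at 593 CPM in BYHWD 1, while the other 4 BYHWD mice held 355 to 402 CPM. miR-487b-3p was at 367 CPM in sham 2, while the other 4 sham mice held 447 to 460 CPM. miR-410-3p was at 662 CPM in BYHWD 3, while the other 4 BYHWD mice held 813 to 849 CPM.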

How the results depend on the processing

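The medians of each comparison and its 3 arm ratios with the smallest p kept their direction under the alternatives run. So did the fold changes of its called members and of the 5 with the smallest p. The numbers of members called moved: in both haemorrhage groups against sham the count ran from 0 to 17, where the main fit gave 11. The order of sham and ICH in the summed share turned on raw totals (4.62 against 4.63%). Among all 63 members, 5, 8 and 6 changed sign without sham 4 and sham 5 in ICH against sham, BYHWD against sham and the pooled comparison, and 1 in BYHWD against ICH, the largest being miR-376c-3p in ICH against sham, from -0.73 to 0.01. On raw totals 7, 8, 10 and 3 did. No member that changed sign was called with either set of values. For the number of members called lower, DESeq2 gave 10 in ICH against sham, 8 in BYHWD against sham and 17 in both haemorrhage groups against sham, where edgeR gave 0, 1 and 11. Without sham 4 and sham 5 the last 2 counts were 0 and 1. Fitting only the groups compared gave 0 for BYHWD against sham. With raw library totals, an alternative chosen after seeing the data, the pooled count was 2 and the members' median in BYHWD against sham -0.0074, where the median of all miRNAs was 0.15, so that the members' median less that of all miRNAs was -0.15 on both scales. Leaving out 1 library at a time gave 0 to 6, 0 to 8 and 1 to 17 members called lower in the 3 comparisons with sham and 0 in BYHWD against ICH, with 0 called higher in each. The share of all miRNAs called lower in the 3 ran from 0.0 to 2.60%, from 0.0 to 5.05% and from 0.153 to 8.88%. Member medians then ran from -0.26 to -0.17, from -0.19 to -0.07 and from -0.21 to -0.13, and from 0.03 to 0.10 in BYHWD against ICH. Arm ratios called ran from 0 to 2 in ICH against sham, from 0 to 1 in the other comparisons with sham, and stayed at 0 in BYHWD against ICH. Shares over all hairpins are not given for those fits. The summed share ran from 4.77 to 5.06% in sham, from 4.42 to 4.59% in ICH and from 4.21 to 4.53% in BYHWD, and without miR-381-3p it was 3.44, 2.74 and 2.76%. Apart from the change of library set, test or scaling itself, the cause was not tested.

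Whether the replicate numbers in the titles pair the mice is not settled. Deviations of same-numbered libraries correlated at -0.43 to 0.22, over 0.1 in 3 of 15 pairs, and such correlations cannot decide it. With the replicate number as a block, 0 members were called in BYHWD against sham and 0 in both haemorrhage groups against sham. In both, 0.0% of all miRNAs were called lower. For miR-379-5p in BYHWD against sham the edgeR adjusted p was then 0.0737. Over all alternatives and comparisons together, 672 values of single members and hairpins stayed on their side of the threshold, 133 lost a call and 29 gained one. The same member or hairpin enters these counts once for each alternative. The 672 include members and hairpins not called in the main fit, which had no call to lose. Of the 11 members called in both haemorrhage groups against sham, between 0 and 11 kept the call, depending on the alternative. Counting depth limits the 16 members under 10 CPM most.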
